A study of Mus musculus with 6 samples.

Results

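Whole-liver messenger RNA was examined for 9 genes used as markers of bile ducts, liver progenitors and simple-epithelial keratins, out of 54532 genes in the deposited table. The members were chosen by gene name: the transcription factor Sox9, the RNA-binding protein Bicc1, the keratins Krt7, Krt19, Krt8 and Krt18, the adhesion molecule Epcam, the secreted protein Spp1 and the chloride channel Cftr. The livers came from 3 mice lacking Notch1 in hepatocytes (KO) and 3 control mice with the genotype Notch1fl/fl, all without treatment. The series is about Notch1 and thrombopoietin made by the liver. Neither the driver of the deletion nor the age or sex of the animals is given in the sources used here.

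As background, intrahepatic bile ducts are lined by cholangiocytes, which form from fetal hepatoblasts beside the portal vein under Jag1-Notch2 signalling, with Sox9 among the first genes switched on. Keratin filaments are built from a type I and a type II chain. Adult hepatocytes make Krt8 (type II) and Krt18 (type I), and cholangiocytes add Krt7 (type II) and Krt19 (type I). Several of these markers are not restricted to ducts: Krt7, Krt19, Krt8 and Krt18 are also made by mesothelium, the cell layer covering the liver, and Spp1 also by macrophages.

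Reads in genes numbered between 15612924 and 17511961 per library. The unit is FPKM, which divides fragments by gene length and by a library scale set by the authors. Notch1, the targeted gene, measured 0.301, 0.540 and 0.292 FPKM in KO 1 to 3, against 0.618, 0.965 and 0.854 FPKM in controls 1 to 3. The groups did not overlap, and the gene did not pass the test over all genes (log2 fold change -0.40, limma adjusted p = 0.257). This value sums every exon over every liver cell type and is no direct reading of the deleted exons. Alb, the albumin gene and the highest of the hepatocyte markers, measured 29086, 28279 and 20452 FPKM in KO 1 to 3, against 29979, 37515 and 32757 FPKM in controls 1 to 3. Libraries also differed in marker genes of mesothelium and of pancreas. The summed level of 13 mesothelial markers was 179, 309 and 244 FPKM in KO 1 to 3, against 16.3, 23.8 and 101 FPKM in controls 1 to 3. Every KO library stood above every control, and control 3 was the highest control for all 13 of these markers. A list of 8 pancreatic acinar genes summed to 25.2 FPKM in KO 2 and to 0.170 to 2.42 FPKM in the other libraries. Estimates of the tested members are also given below without KO 2 and without control 3. Neither setting removes the mesothelial difference, and leaving out control 3 widens it. The median log2 fold change of the 12 tested mesothelial markers was 1.91 with all libraries and 1.75 without KO 2. It was 2.42 without control 3 and 2.26 with both left out.

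Krt7, Krt19, Bicc1, Sox9 and Krt8 measured higher in every KO liver than in any control, while Krt18, Spp1, Epcam and Cftr overlapped between the groups. The largest ratios of mean FPKM were those of Krt7 (5.81), Bicc1 (4.04) and Krt19 (3.35). Of the 9 members, 7 reached the mean of 0.5 FPKM over the 6 libraries needed for testing, and Epcam and Cftr did not. By limma on log2(FPKM + 1), 0 of the 7 passed an adjusted p of 0.05, where 0.025% of the 12022 genes tested did (3 genes: 1 higher in KO, 0.00832%, and 2 lower, 0.0166%). Blocking on replicate number left 0 genes past it, with 1937 at an unadjusted p under 0.05. At an unadjusted p under 0.05 there were 5 members higher in KO, where 6.83% of all genes were, and 0 members lower, where 7.06% of all genes were. By limma voom on recovered reads 0 members passed. The groups did not overlap in 5 tested members with KO above control, where this held for 9.2% of genes, and in 0 members with KO below, where it held for 10.6%. The median log2 fold change of the 7 was 0.52, against -0.0081 over all genes tested. The members were chosen with these results known, so the counts describe them only.

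**Figure D1:**
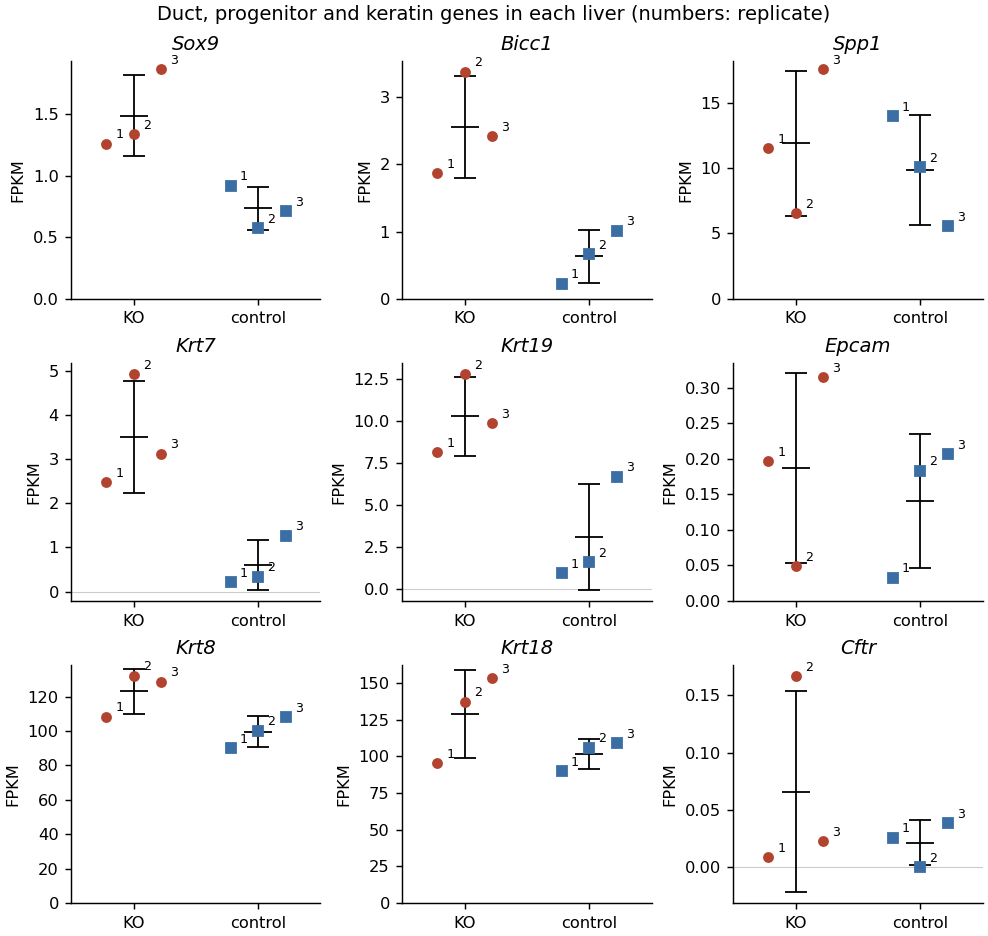
FPKM of the 9 members in each library, KO at the left and control at the right of each panel; points are libraries with their replicate number, and bars are mean and SD (n = 3). All 3 KO points of Sox9, Bicc1, Krt7, Krt19 and Krt8 lie above all 3 control points, by a narrow gap for Krt8 (108.2 against 108.1 FPKM).

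The ordering of levels was the same in both groups at its top and bottom. Krt18 and Krt8 were highest at about equal levels, Spp1 and Krt19 came next, and Krt7, Bicc1 and Sox9 lay in the range of a few FPKM or less. Neighbours in this order overlapped within each group: Krt8 with Krt18, Spp1 with Krt19, Krt7 with Bicc1 in KO, and Krt7, Bicc1 and Sox9 in controls. Epcam and Cftr were lowest.

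Krt7, the type II keratin of duct cells (chromosome 15, 101411043 to 101430313, GRCm38), measured 2.49, 4.94 and 3.13 FPKM in KO 1 to 3, against 0.217, 0.337 and 1.26 FPKM in controls 1 to 3. KO 2 was the highest library and control 3 the highest control, and the groups did not overlap. The log2 fold change was 1.51 (SE 0.28, 95% interval 0.84 to 2.18), with an adjusted p of 0.115 by limma. The values rest on 262, 698 and 377 reads in KO and on 23, 38 and 148 reads in controls. Without control 3 the log2 fold change was 1.79 (limma adjusted p = 0.053), and without KO 2 it was 1.30 (0.170). With KO 2 and control 3 both left out, a setting chosen after the data were seen, it was 1.57 and passed (limma adjusted p = 0.0353). In that setting 47 of the 12022 genes tested passed, against 3 with all libraries.

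Krt19, the type I keratin used as a standard duct marker (chromosome 11, 100140810 to 100148665), measured 8.15, 12.8 and 9.87 FPKM in KO 1 to 3, against 0.934, 1.58 and 6.68 FPKM in controls 1 to 3. Control 3 lay close below KO 1, far from the other controls. Its log2 fold change was 1.72 (SE 0.48, 95% interval 0.58 to 2.86), and the adjusted p was 0.210 by limma. Leaving out control 3 brought the gene past the threshold, with a log2 fold change of 2.31 (limma adjusted p = 0.0304), as did leaving out KO 2 and control 3 together (2.16, adjusted p = 0.0314). Control 3 was the highest control of Krt19, so leaving that library out could only raise the estimate. Of all 12022 genes tested, 58 passed without control 3 and 47 with both left out, against 3 with all libraries. Without KO 2 alone the log2 fold change of Krt19 was 1.56 (limma adjusted p = 0.344). In a bulk liver sample, more cells of a type and more RNA per cell cannot be told apart.

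Bicc1, an RNA-binding protein of tubular epithelia whose loss gives kidney cysts in mice (chromosome 10, 70922832 to 71159700), measured 1.87, 3.38 and 2.42 FPKM in KO 1 to 3, against 0.224, 0.663 and 1.01 FPKM in controls 1 to 3. Again the groups did not overlap, with KO 2 highest and control 3 the highest control. The log2 fold change was 1.13 (SE 0.22, 95% interval 0.60 to 1.66), and the limma adjusted p was 0.124. It was 0.97 without KO 2 and 1.30 without control 3, and the limma adjusted p ranged from 0.0893 to 0.323 over all alternatives.

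Mesothelial markers moved with these 3 genes. From highest to lowest, Krt7, Krt19, Bicc1 and Krt8 all ranked the libraries KO 2, KO 3, KO 1, control 3, control 2, control 1, the order of Msln (mesothelin), a defining marker of mesothelium. This order was that of 5 of the 13 mesothelial markers, Msln included, and the other 8 had other orders. Msln measured 36.6, 60.7 and 41.8 FPKM in KO 1 to 3, against 2.02, 3.90 and 19.1 FPKM in controls 1 to 3. Upk3b, a uroplakin of mesothelium, measured 26.9, 46.6 and 35.1 FPKM in KO, against 1.51, 4.05 and 17.1 FPKM in controls. Of the 13 mesothelial markers 12 lay higher in every KO liver than in any control, where 9.2% of all genes tested did. Of the 12 tested, all 12 were higher at an unadjusted p under 0.05 by limma, where 6.83% of all genes were. The smallest limma adjusted p among the 12 tested markers was 0.120, so 0 passed, and 0 of the 13 were at 0 in every library. Their part in the values of Krt7, Krt19 and Bicc1 was not tested.

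Ratios within a library show how far the 3 genes kept pace with Msln. Krt7 per Msln was 0.0680, 0.0814 and 0.0749 in KO 1 to 3, against 0.108, 0.0863 and 0.0660 in controls, so the ratios of the groups overlapped. Bicc1 per Msln was 0.0511, 0.0557 and 0.0579 in KO, against 0.111, 0.170 and 0.0528 in controls. Controls 1 and 2 lay above every KO library, and the overlap came from control 3 alone. Krt19 per Msln was 0.223, 0.211 and 0.236 in KO, below the 0.463, 0.406 and 0.349 of controls. The ratio of mean FPKM, KO over control, was 5.55 for Msln, against 5.81 for Krt7, 4.04 for Bicc1 and 3.35 for Krt19. Krt19 and Bicc1 thus differed between the groups by a smaller factor than Msln did.

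**Figure D2:**
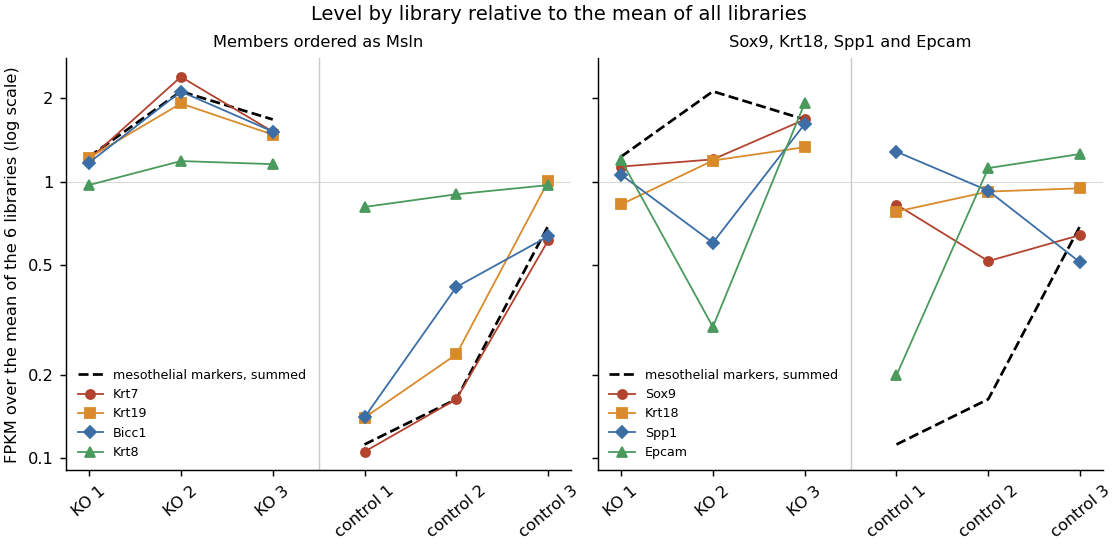
FPKM in each library over the gene's mean of all 6 libraries (log scale), KO libraries left and controls right, with the summed level of 13 mesothelial markers as a dashed line; lines only join values of 1 gene within a group. Krt7 runs close to the dashed line in both groups. Krt19 and Bicc1 run close to it in the KO libraries and lie further from it among the controls. Krt8 has the same order as Krt7, Krt19 and Bicc1 over a narrower range. Sox9, Krt18, Spp1 and Epcam have other orders.

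Sox9, a transcription factor of duct and progenitor cells (chromosome 11, 112782224 to 112787760), measured 1.26, 1.34 and 1.87 FPKM in KO 1 to 3, against 0.919, 0.574 and 0.713 FPKM in controls 1 to 3. All KO livers lay above all controls, with KO 3 highest and control 1 the highest control. Of the 13 mesothelial markers, 4 also had KO 3 highest, and 0 had control 1 as the highest control. The order of the controls for Sox9 rests on 38 to 57 reads each. The part of mesothelial cells in the Sox9 values was not tested. The ratio of means was 2.03 and the log2 fold change 0.52 (SE 0.13, 95% interval 0.20 to 0.83), with a limma adjusted p of 0.184. The Sox9 values rested on 78, 111 and 132 reads in KO and on 57, 38 and 49 reads in controls. The log2 fold change was 0.56 without KO 2, 0.51 without control 3 and 0.55 without both. The limma adjusted p ranged from 0.132 to 0.398 over all alternatives.

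Krt8 and Krt18 form the filament pair of hepatocytes and measured near 100 FPKM. Krt8 (chromosome 15, 101996698 to 102004482) measured 108.2, 132 and 129 FPKM in KO 1 to 3, against 90.1, 100.2 and 108.1 FPKM in controls 1 to 3. KO 1 and control 3 were nearly level. Krt18 (chromosome 15, 102028180 to 102032027) measured 95.2, 137 and 153 FPKM in KO, against 89.7, 106 and 109 FPKM in controls, and KO 1 lay among the controls. The log2 fold changes were 0.30 (SE 0.13, 95% interval 0.0040 to 0.60, limma adjusted p = 0.353) for Krt8 and 0.32 (SE 0.19, 95% interval -0.14 to 0.77, limma adjusted p = 0.515) for Krt18. Without KO 2 that of Krt8 was 0.25 (95% interval -0.065 to 0.56), and without control 3 it was 0.36 (0.0085 to 0.72). For Krt18 it was 0.25 without KO 2, 0.37 without control 3, 0.52 without KO 1 and 0.17 without KO 3. Reads of Krt8 and of its pseudogene Krt8-ps could be split by counting, but Krt8-ps held 1 to 10 reads per library beside 2647 to 5185 for Krt8.

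The levels of the pair were close. Krt8 per Krt18 was 1.14, 0.962 and 0.839 in KO 1 to 3, against 1.004, 0.945 and 0.992 in controls (0.979 ± 0.149 and 0.981 ± 0.0314, SD, n = 3 each). The mean ratios were close, and the ratio varied more among KO livers. Both type II chains together over both type I chains gave 1.07, 0.913 and 0.808 in KO, against 0.997, 0.934 and 0.946 in controls. The duct keratins were a small fraction beside the hepatocyte pair. Per 100 FPKM of Krt8 there were 2.30, 3.74 and 2.43 FPKM of Krt7 in KO, against 0.241, 0.336 and 1.17 in controls. Per 100 FPKM of Krt18 there were 8.56, 9.33 and 6.43 FPKM of Krt19 in KO, against 1.04, 1.49 and 6.14 in controls.

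In the genome, Krt7 and Krt8 lie on chromosome 15 with 23 other keratin genes between them, 20 of which were at 0 in every library. Krt8 and Krt18 are transcribed away from each other, with 23698 bases between their starts. The files list 54 keratin genes, 36 of them at 0 in all 6 libraries. The 6 that reached the filter were Krt7, Krt8, Krt10, Krt18, Krt19 and Krt23. The promoter windows of the 3 chromosome 15 keratins are shown because Krt8 and Krt18 are paired in level while Krt7 had a larger difference between the groups. Each runs from 250 bases before to 50 after the RefSeq start (GRCm38.p6) on the gene's strand. The Krt7 window lies wholly inside the span of the measured gene, which starts upstream of it at 101411043. Capitals mark GTGGGAA, a core letter string bound by Rbpj, the DNA-binding partner of Notch, and TATAAA, both searched on either strand.
Krt8 promoter, chr15:102004293-102004592, minus strand: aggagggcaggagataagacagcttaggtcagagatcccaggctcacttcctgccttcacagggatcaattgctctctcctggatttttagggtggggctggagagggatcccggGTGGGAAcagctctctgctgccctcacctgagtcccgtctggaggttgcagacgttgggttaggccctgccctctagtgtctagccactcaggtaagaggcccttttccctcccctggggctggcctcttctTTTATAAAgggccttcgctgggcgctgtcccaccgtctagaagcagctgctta
Krt18 promoter, chr15:102027966-102028265, plus strand: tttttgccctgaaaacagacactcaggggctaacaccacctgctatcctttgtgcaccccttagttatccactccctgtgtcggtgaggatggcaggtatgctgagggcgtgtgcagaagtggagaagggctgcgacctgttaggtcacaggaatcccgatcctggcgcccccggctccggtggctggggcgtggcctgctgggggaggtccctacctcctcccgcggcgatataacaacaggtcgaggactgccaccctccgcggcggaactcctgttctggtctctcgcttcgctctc
Krt7 promoter, chr15:101412153-101412452, plus strand: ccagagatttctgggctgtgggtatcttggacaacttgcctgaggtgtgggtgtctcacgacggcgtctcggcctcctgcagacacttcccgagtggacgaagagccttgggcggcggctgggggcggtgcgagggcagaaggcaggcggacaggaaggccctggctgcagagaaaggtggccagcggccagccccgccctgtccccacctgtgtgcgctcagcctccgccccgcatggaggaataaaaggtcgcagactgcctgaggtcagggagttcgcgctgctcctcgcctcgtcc
The Krt8 window holds GTGGGAA at 1 place, and TATAAA on both strands at overlapping letters. The Krt18 and Krt7 windows hold neither string. Of 32817 promoter windows of this length, 6.39% hold GTGGGAA and 13.6% hold TATAAA. A match describes letters only and is not a binding site. RefSeq windows were matched by symbol for 6 of the 9 members (Krt7, Krt8, Krt18, Epcam, Spp1 and Cftr).

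Epcam, a surface molecule of duct and progenitor cells (chromosome 17, 87635979 to 87651106), was close to the detection limit. It measured 0.197, 0.0489 and 0.315 FPKM in KO 1 to 3, against 0.0327, 0.184 and 0.206 FPKM in controls 1 to 3. These values are 6, 2 and 11 reads in KO and 1, 6 and 7 reads in controls. KO 2, the library with the highest Krt7, Krt19 and Bicc1, had the lowest Epcam of the KO group. The groups overlapped (exact permutation test on FPKM, two-sided, p = 0.6, where 3 against 3 can give no less than 0.1). In the fit without a filter the log2 fold change was 0.054 (95% interval -0.19 to 0.30), a range that a pseudocount of 1 narrows at these levels. A difference in Epcam was not detectable at this depth.

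Cftr, the chloride channel of duct epithelium (chromosome 6, 18170687 to 18322768), measured 0.00861, 0.167 and 0.0226 FPKM in KO 1 to 3, against 0.0257, 0 and 0.0387 FPKM in controls 1 to 3. This is 1, 26 and 3 reads in KO and 3, 0 and 5 reads in controls. KO 2 alone stood apart (exact permutation test, two-sided, p = 0.7). It is also the library with the pancreatic acinar genes: Ctrb1 (chymotrypsinogen) measured 0, 13.8 and 0 FPKM in KO, against 0.987, 0 and 0.137 FPKM in controls. Pnlip, pancreatic lipase, measured 3.66 FPKM in KO 2 and 0 in the other KO livers, against 0.583, 0 and 0 FPKM in controls. The part of pancreatic tissue in the Cftr value was not tested.

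Spp1, which encodes osteopontin, a secreted phosphoprotein of duct cells and macrophages (chromosome 5, 104435118 to 104441050), measured 11.5, 6.54 and 17.6 FPKM in KO 1 to 3, against 14.0, 10.1 and 5.55 FPKM in controls 1 to 3. The groups overlapped fully, with KO 3 highest and control 3 lowest. The log2 fold change was 0.23 (SE 0.40, 95% interval -0.71 to 1.17, limma adjusted p = 0.845). It turned to -0.08 without KO 3 and to -0.094 without control 3, and was 0.57 without KO 2. Cd5l, a Kupffer cell marker with the highest mean level in the macrophage list, measured 74.1, 47.9 and 56.6 FPKM in KO, against 59.8, 77.4 and 53.0 FPKM in controls. The part of macrophages in the Spp1 values was not tested.

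**Figure D3:**
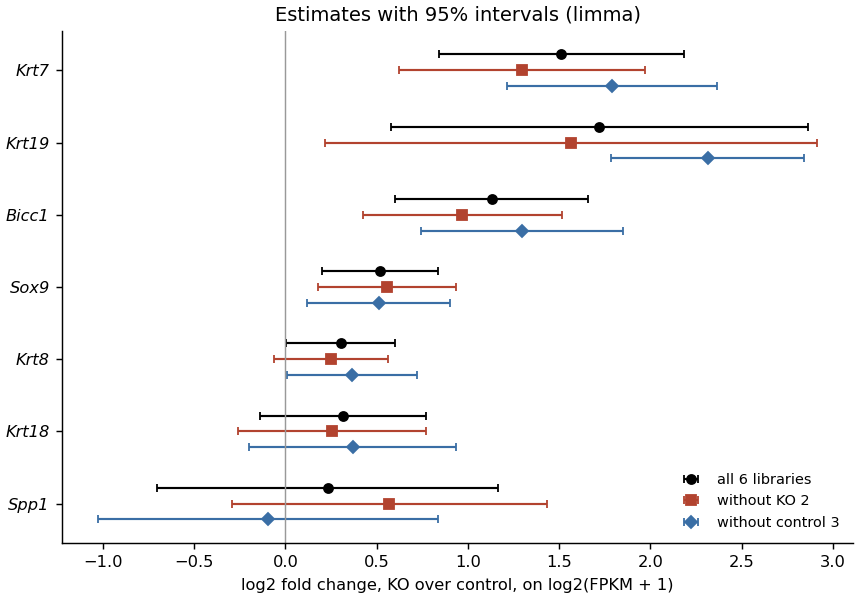
Log2 fold change, KO over control, on log2(FPKM + 1) for the 7 tested members with 95% limma intervals, from all 6 libraries, without KO 2 and without control 3. The interval of Krt19 narrows without control 3 (1.78 to 2.84, against 0.58 to 2.86 with all libraries), the estimates of Sox9 differ little, and that of Spp1 changes sign.

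Other genes of bile duct epithelium were mostly low and showed no common direction. Of 22 further duct genes, 13 were under the filter, and 3 were at 0 in every library, among them Cldn4, a claudin, and Sctr, the secretin receptor. Of the 9 tested, 6 had higher and 3 lower means in KO, and the median log2 fold change was 0.042. Of these, 0 passed over all genes, and 1 was higher at an unadjusted p under 0.05 by limma, where 6.83% of all genes were. That gene was Aqp1, a water channel also made by endothelium, at 66.2, 73.4 and 55.0 FPKM in KO, against 41.6, 41.1 and 48.3 FPKM in controls (limma adjusted p = 0.173). Tm4sf4, a tetraspan membrane protein, measured 35.5 ± 2.48 FPKM in KO and 29.6 ± 3.38 FPKM in controls. Pkd2, a polycystin of primary cilia, measured 1.82 ± 0.138 FPKM in KO and 1.36 ± 0.327 FPKM in controls (SD, n = 3 each). Under the filter, and named after their values were seen, Tspan8 and Sox4 lay higher in every KO liver than in any control. Tspan8, a tetraspanin, had 15, 21 and 14 reads in KO 1 to 3, against 1, 2 and 7 reads in controls 1 to 3. Sox4, a transcription factor of duct development, had 40, 76 and 37 reads in KO, against 19, 17 and 24 reads in controls. With the replicate block, 2 of the 9 tested duct genes were higher at an unadjusted p under 0.05, where 7.94% of all genes were.

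Signals that guide duct fate pointed both ways. Of 12 tested genes, 8 had higher and 4 lower means in KO, and 0 passed over all genes. At an unadjusted p under 0.05 by limma 4 were higher, where 6.83% of all genes were, and 2 lower, where 7.06% were. Onecut1, a transcription factor of hepatoblasts and early ducts, measured 1.76, 0.934 and 0.498 FPKM in KO, against 9.64, 4.36 and 13.0 FPKM in controls, with no overlap (log2 fold change -2.21, limma adjusted p = 0.107). Jag1, the Notch ligand of duct formation, measured 0.413, 0.479 and 0.442 FPKM in KO, against 0.721, 0.632 and 0.558 FPKM in controls (limma adjusted p = 0.466). Hes1, a Notch target, measured 5.68, 5.78 and 4.36 FPKM in KO, against 4.58, 2.15 and 3.01 FPKM in controls, and the groups overlapped. Wwtr1, a Hippo pathway coactivator, measured 5.26, 6.001 and 6.65 FPKM in KO, against 4.07, 5.03 and 4.07 FPKM in controls (limma adjusted p = 0.254).

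Among 12 progenitor and fetal genes, 6 were tested and 0 passed. By limma 1 was higher at an unadjusted p under 0.05, where 6.83% of all genes were, and 2 with the replicate block, where 7.94% were. The first was Gpc3, a fetal liver glypican, at 12.5, 23.7 and 12.8 FPKM in KO, against 0.669, 2.32 and 10.3 FPKM in controls (log2 fold change 2.06, limma adjusted p = 0.253). As with Krt19, control 3 was far above the other controls. Spink1, a trypsin inhibitor of pancreas and regenerating liver, measured 1.11, 5.44 and 2.36 FPKM in KO, against 0.948, 1.78 and 0.998 FPKM in controls. H19, an imprinted RNA of fetal liver, measured 0.217, 2.92 and 0.190 FPKM in KO, against 0.0813, 0.305 and 0.245 FPKM in controls. For both, KO 2 was the highest library and the groups overlapped.

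Of 12 other keratins, 10 were under the filter. Krt23, a keratin of ducts and injured liver, measured 0.0854, 1.47 and 0.262 FPKM in KO, against 1.15, 1.48 and 0.4998 FPKM in controls, in an order unlike Krt7 or Krt19. Krt14, a basal-cell keratin under the filter and named after its values were seen, had 6 reads in each KO liver and 0 in each control (adjusted p = 0.196 by limma without a filter). Krt10, a type I keratin of skin, measured 0.380, 1.46 and 0.415 FPKM in KO, against 1.23, 1.03 and 0.626 FPKM in controls. Of 9 tested genes of keratin anchorage and related filaments, 6 had higher and 3 lower means in KO, with 0 past the threshold. By limma 3 were higher at an unadjusted p under 0.05, where 6.83% of all genes were, and 0 lower. Jup, plakoglobin of cell junctions, measured 5.34, 5.90 and 5.94 FPKM in KO, against 4.16, 3.87 and 4.59 FPKM in controls. Ppl, periplakin, measured 1.67, 3.65 and 2.19 FPKM in KO, against 0.609, 1.10 and 0.995 FPKM in controls (limma adjusted p = 0.182 for each). Vim, the filament protein of mesenchyme and mesothelium, measured 19.5, 29.0 and 32.0 FPKM in KO, against 8.67, 10.6 and 20.9 FPKM in controls, with KO 1 below control 3.

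Marker lists of other liver cells differed less than the mesothelial list. The median log2 fold change was 1.91 for 12 tested mesothelial markers, -0.05 for 10 macrophage, 0.20 for 11 stellate and fibroblast, -0.19 for 8 endothelial and -0.12 for 10 hepatocyte markers, with 0 genes of any of these lists past the threshold by limma. In these 5 lists 12 mesothelial, 2 macrophage, 1 stellate and 0 endothelial or hepatocyte markers were higher at an unadjusted p under 0.05 by limma, where 6.83% of all genes were. At that level 2 endothelial markers were lower, where 7.06% of all genes were. With the replicate block, 5 stellate and fibroblast markers were higher at that level (Acta2, Col3a1, Pdgfrb, Des and Col1a1, named after their values were seen), where 7.94% of all genes were, and 1 macrophage marker was lower, where 8.18% of all genes were. The smallest limma adjusted p in the stellate and fibroblast list was then 0.162. In that list of 11, 6 had higher and 5 lower means in KO, the lower ones being Lrat, Reln, Hgf, Ecm1 and Colec11. The groups overlapped in all 11, the named genes included. Summed macrophage markers spanned 163 to 224 FPKM in KO and 176 to 227 FPKM in controls. Summed hepatocyte markers spanned 34791 to 45128 FPKM in KO and 47013 to 54602 FPKM in controls, a sum carried by Alb, the 1 hepatocyte marker of 10 whose groups did not overlap. Without Alb the sums were 15900, 16849 and 14339 FPKM in KO 1 to 3, against 17034, 17087 and 16032 FPKM in controls 1 to 3, and overlapped. Their part in the results was not tested.

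**Figure D4:**
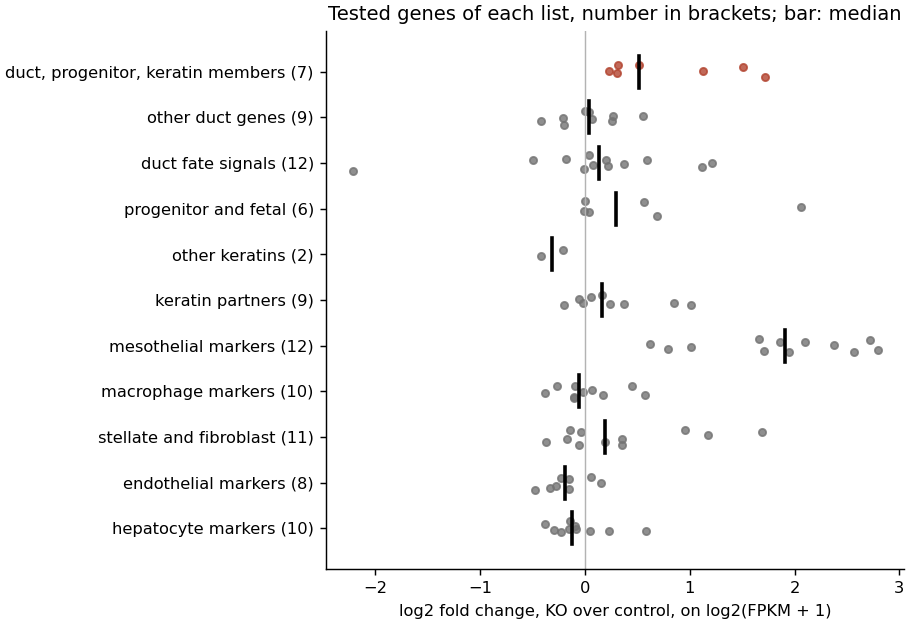
Log2 fold change, KO over control, on log2(FPKM + 1) of each tested gene by list, with the number tested in brackets and the median as a bar. The members have a median of 0.52 and the mesothelial markers one of 1.91, while other duct genes have one of 0.042.

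Genes with a library pattern most like Sox9 and Krt8 were looked up over the 6 libraries among 10068 genes averaging 1 FPKM or more. For Sox9 they included Arf1, Copg1 and Eef2kmt, with Pearson's r of 0.984, 0.981 and 0.981 on log2(FPKM + 1). For Krt8 they were Wls, Tomm40l, Gm10698 and Serpinb6b, at 0.995, 0.995, 0.993 and 0.993. The libraries share the group difference and the scaling, and with 6 points such values describe a pattern only. For Epcam, which had 1 to 11 reads per library, the lookup gave Atpaf2, Gem, Otud3 and Hsf4, at 0.985, 0.984, 0.9751 and 0.974.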

How the data were processed

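The authors deposited 1 table of FPKM for 54532 genes in 6 liver libraries, with gene names, coordinates and lengths. GRCm38, featureCounts 1.5.0-p3 and HISAT2 2.0.5 are listed in the submitters' processing notes, without roles or settings; per the labels' protocols, poly-T selected RNA was made into libraries with a NEBNext Ultra kit. Strand is not given in the sources used here, so reads of overlapping antisense genes cannot be told apart; such genes at the members held at most 5 reads per library. KO columns carry the group's name. The remaining columns, named NC, were assigned to the controls by elimination, so every control value rests on that reading. Multiplying FPKM by length and dividing by a constant of the library returned whole reads (tolerance 0.1 read) for 100% of nonzero values. The constant was inversely proportional to a median-ratio size factor, so scaling was already in the deposited FPKM values. Read counts carry counting error beside the spread between livers.

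The 12022 genes averaging 0.5 FPKM or more were fitted on log2(FPKM + 1) with limma 3.58.1 in R 4.3.3 (lmFit, eBayes with trend), two-sided, with Benjamini-Hochberg adjustment over all of them and a threshold of 0.05. The pseudocount of 1 understates changes of low genes, so ratios of mean FPKM are also given. Intervals are 95%. As a check of pairing by replicate number, library deviations around their group mean had correlations between 0.101 and 0.315 for equal numbers, each over 0.1, and between -0.25 and 0.11 for unequal ones. The pairing rests on the values alone, since the labels name no shared litter, batch or day; the fit without the block is the main one, and blocked values are given where a count of calls changed by over 1.5 times. Nothing in the labels ties the livers to litters or cages. Whether the 6 samples are independent is therefore not known, and the p-values of the main fit treat them as independent.

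The members and gene lists were chosen with earlier results of these data known. Named genes are the members, Notch1, Jag1, Hes1 and Onecut1, up to 3 genes per related list with the smallest p, up to 3 per marker list with the highest level, and Msln and Upk3b; of 9 gut and stomach, 8 proliferation and other context genes only those bearing on a member are printed. Some genes under this rule are not reported here. Alternatives changed the pseudocount, filter, scaling, weights, eBayes setting, replicate block and count model (limma voom on recovered reads), and left out each library.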

Additional observations from a re-analysis of the deposited data

How the results depend on the processing

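The 7 tested members gave 133 values over 19 alternatives, and 128 of these kept the direction and the side of the threshold. The exceptions were Krt19 and Krt7 past the threshold (Krt19 at 2.31 without control 3; Krt19 at 2.16 and Krt7 at 1.57 with KO 2 and control 3 both left out) and Spp1 turned to -0.08 without KO 3 and -0.094 without control 3; the cause was not tested. Leaving out single libraries gave 0.41 to 0.59 for Sox9, 1.30 to 1.79 for Krt7, 1.32 to 2.31 for Krt19, 0.23 to 0.39 for Krt8, 0.17 to 0.52 for Krt18, 0.94 to 1.30 for Bicc1 and -0.094 to 0.57 for Spp1, and 0 to 1 members and 0 to 58 genes past the threshold (58 without control 3, 29 without KO 2, and 0 without KO 1 or control 2). With both libraries out, chosen after the data were seen, 2 members and 47 genes passed. Over all genes, 3 passed in the fit as reported, 1 with a pseudocount of 0.1, 0 without a filter (2224 at an unadjusted p under 0.05), 5 with TPM scaling, 15 by voom and 0 with the replicate block, which changed no call of a member. With TPM scaling the median log2 change of all genes was 0.12, against -0.0081 as reported, and no member reversed. The 1 to 11 reads of Epcam and 0 to 26 of Cftr per library limit both.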
